A study of Mus musculus with 12 samples.

Results

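The proteasome genes were read as a module from RNA levels in MEFs, wild-type fibroblasts grown from mouse embryos. The module holds every gene of the deposited table whose symbol starts with PSMA, PSMB, PSMC, PSMD, PSME, PSMF or PSMG followed by a digit, after removal of pseudogene symbols. It came to 48 of the 16425 genes in the table. Of these, 5 are immunoproteasome genes that were set beside the other 43. Before the experiment the MEFs had received 1 of 2 guides by infection: an sgRNA against the site in Pvt1 to which the transcription factor p53 binds (its p53 response element), or an sgRNA without a target (sgtom, the control guide). Cells of each guide were kept for 24 h in 0.5 µM doxorubicin, a DNA-damaging drug, and gave 3 replicates per guide. Both guides were thus compared under the drug, and the doxorubicin response itself was not analysed here, nor were the untreated samples of the series, which holds 12 samples in 4 groups. The labels do not say whether replicates were separate cultures or embryos, so the p-values below measure only the spread between these samples, which may be technical.

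The proteasome is the large protease that degrades proteins tagged with ubiquitin. Its core particle is a barrel of stacked rings, with alpha subunits at both ends that form the gate and beta subunits in the middle that hold the cutting sites. A regulatory particle caps the barrel, where 6 ATPases (Psmc genes) unfold the substrate and non-ATPase subunits (Psmd genes) catch it and remove ubiquitin. The capped complex is called the 26S proteasome, the bare barrel the 20S and the cap the 19S. After interferon, cells make alternative cutting subunits and an activator ring, the immunoproteasome, which yields peptides for antigen presentation. In fibroblasts the transcription factor Nfe2l1 is known to raise the constitutive subunit genes together when proteasome activity falls short.

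Levels are the authors' CPM (counts of reads over a scaled library size), and the libraries held between 50091418 and 66132317 reads in genes. Pvt1, the targeted locus, stood at 16.4, 11.7 and 12.1 CPM in the control guide libraries and at 8.04, 5.93 and 5.40 CPM in the response element guide libraries, in replicate order, so the groups did not overlap (limma adjusted p = 1.40e-04 with replicate number as a block and 1.0 without). All 12 fibroblast markers were listed, with a summed level of 37518 to 39248 CPM per library, most of it from Fn1 and Col1a1. Of these markers S100a4 fell with the response element guide in the fit with replicate number as a block (log2 fold change -0.31, limma adjusted p = 0.0107). Without the block S100a4 was not called. Its groups overlapped, at 174 to 228 CPM with the control guide and 138 to 176 CPM with the response element guide. Of 18 macrophage marker names 16 were listed, and their summed level was 241, 118 and 139 CPM with the control guide and 381, 111 and 140 CPM with the response element guide, higher in both replicate 1 libraries. No erythroid marker was listed. In bulk RNA, fewer cells of a type and less RNA per cell cannot be told apart.

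Every gene of the module was expressed above the low-value filter of at least 0.5 CPM in at least 3 libraries, so all 48 entered the tests. To compare levels between genes, CPM was divided by transcript length in kb, and the mean over the 6 libraries is given with its SD (n = 6). The 31 constitutive subunits of the 26S proteasome that match the symbol rule lay between 35.2 and 249.5 CPM per kb, a span of 7.08 times. The constitutive beta ring lay from 77.3 (Psmb1) to 174 CPM per kb (Psmb3), a span of 2.25 times. The alpha ring without Psma8 lay from 54.9 (Psma2) to 112 CPM per kb (Psma7), a span of 2.05 times. The ATPases lay from 47.96 (Psmc6) to 159 CPM per kb (Psmc3).

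Psmd8, a lid subunit of the cap, had the highest level of the module at 249.5 ± 11.4 CPM per kb (SD, n = 6). Psmb3, a non-cutting beta subunit, followed at 174 ± 9.36 CPM per kb. Psmc3, an ATPase, stood at 159 ± 7.02 CPM per kb. Psmd2, the scaffold that receives ubiquitin shuttle proteins, stood at 154 ± 4.85 CPM per kb. Psmb6, a cutting subunit, stood at 153 ± 13.3 CPM per kb. The ranges of Psmb3, Psmc3, Psmd2 and Psmb6 over the libraries overlapped, so their order was within the spread, whereas no library of Psmd8 fell into the range of Psmb3. At the other end of the constitutive subunits were Psmd11, which clamps the cap to the barrel, at 35.2 ± 1.23 CPM per kb, and Psmd12, a lid subunit, at 42.8 ± 1.09 CPM per kb. The order rests on the length used: with the union of all exons in place of transcript length, Psmd8 stayed first at 123.4 CPM per kb of exon and Psmb3 moved from rank 2 to rank 12.

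Psme3, the nuclear activator ring subunit, stood at 45.3 ± 1.58 CPM per kb, above Psmd11 and Psmd12. Psme4, a large activator, stood at 23.6 ± 1.79 CPM per kb and Psmf1, an inhibitor of the barrel, at 12.5 ± 0.489. Both were below all 31 constitutive subunits by transcript length. With the union of all exons Psme4 stood at 18.3 CPM per kb of exon, above Psmd11 at 15.7. The 7 assembly chaperones, proteins that build the complex and then leave it, lay from 5.04 to 16.3 CPM per kb, below all 31 constitutive subunits. Among them Psmd5 and Psmd10, chaperones of the ATPase base, were highest at 16.2 ± 0.589 and 16.3 ± 1.12 CPM per kb. Psmd9, another chaperone of the base, stood at 10.5 ± 0.942. Psmg4, a chaperone of the alpha ring, was the lowest of the 7 at 5.04 ± 0.381. Psma8, the testis form of an alpha subunit, stood at 0.872 ± 0.114 CPM per kb on 64 to 115 reads per library. Psmc3ip, which matches the symbol rule but is a meiotic recombination factor and no proteasome subunit, stood at 1.30 ± 0.173 CPM per kb. Psmb11, the thymus form of a cutting subunit, and Psme2b, a near copy of Psme2, were not listed in the table.

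**Figure D1:**
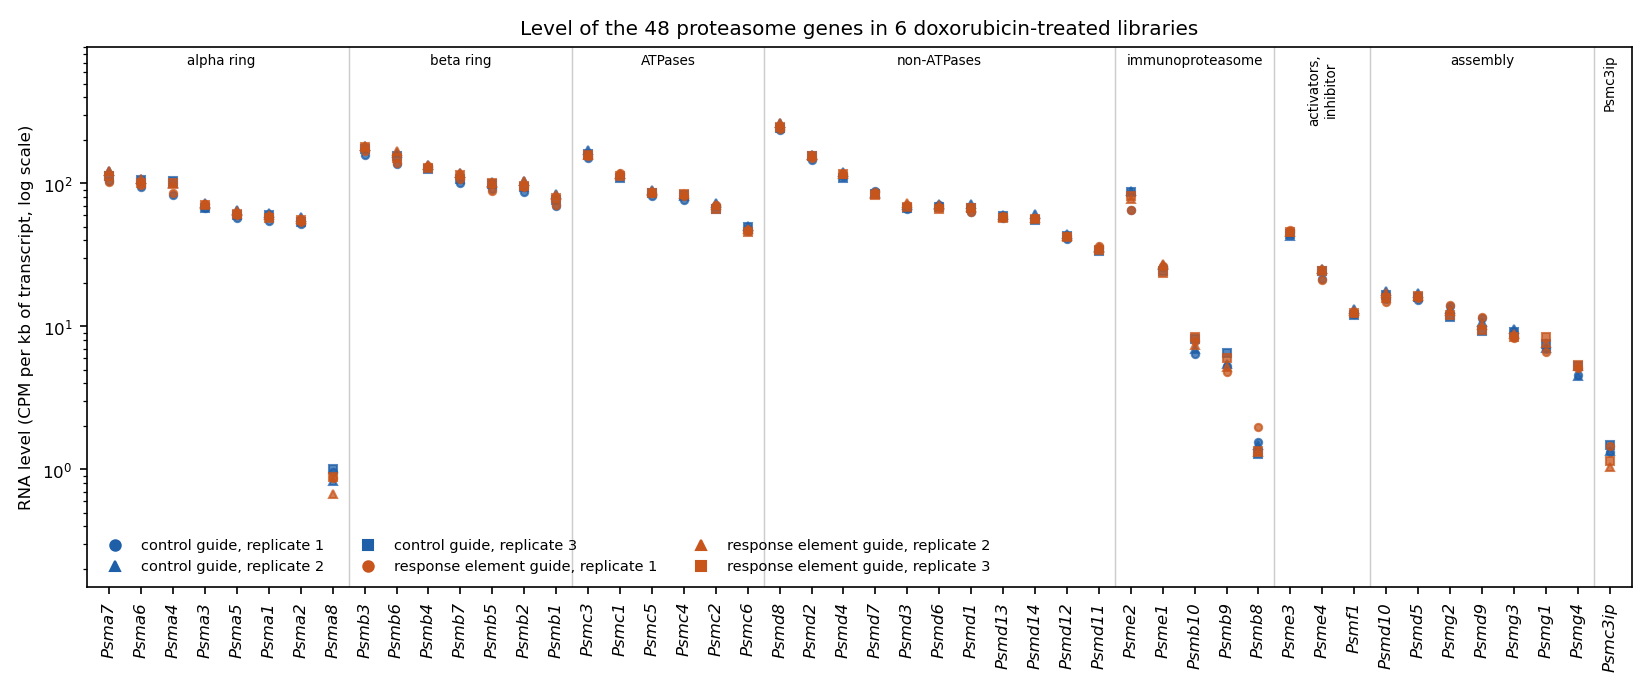
Level of each gene (vertical axis, CPM per kb of transcript, log scale) in each of the 6 libraries (points, coloured by guide and shaped by replicate number), in groups of subunits and ordered by mean within a group. The 31 constitutive subunits sit between 35.2 and 249.5 on average, the assembly chaperones between 5.04 and 16.3, and Psmb8, Psma8 and Psmc3ip near 1.

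Of the immunoproteasome genes the activator subunits were far higher than the cutting subunits. Psme2 stood at 77.4 ± 10.2 CPM per kb, within the range of the constitutive subunits, and its ring partner Psme1 at 25.8 ± 1.33 CPM per kb, below all of them. Per length, Psme2 came to between 246% and 352% of Psme1 in the 6 libraries. The cutting subunits Psmb10, Psmb9 and Psmb8 stood at 7.54 ± 0.789, 5.56 ± 0.623 and 1.49 ± 0.260 CPM per kb. Psmb8 values rested on 120 to 213 reads per library, Psmb9 on 394 to 597 and Psmb10 on 484 to 808.

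Each immunoproteasome cutting subunit takes the place of 1 constitutive subunit, and it was set against that partner per length. Psmb8, which replaces Psmb5, came to 1.70%, 1.44% and 1.28% of Psmb5 with the control guide and to 2.24%, 1.32% and 1.34% with the response element guide. Psmb9, which replaces Psmb6, came to 3.91%, 3.33% and 4.18% of Psmb6 and to 3.44%, 3.08% and 4.002%. Psmb10, which replaces Psmb7, came to 6.33%, 5.84% and 7.59% of Psmb7 and to 7.27%, 6.21% and 7.41%. The 3 ratios did not overlap each other in any library, and for each of them the ranges of the guides overlapped. With union exon lengths the mean of Psmb8 to Psmb5 was 0.741% in place of 1.55%, and that of Psmb10 to Psmb7 was 15.3% in place of 6.77%, so the size of a ratio depends on the length, and its relative spread over libraries does not. Psmb8 was highest in the replicate 1 library with the response element guide, where the summed macrophage markers were also highest, at 381 CPM. The part of macrophages in the Psmb8 level was not tested.

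**Figure D2:**
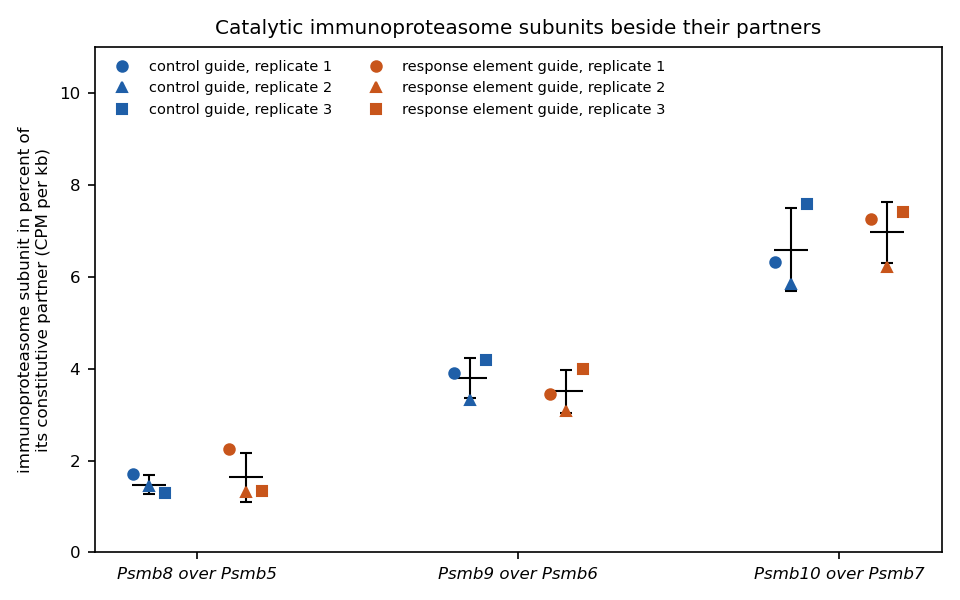
Immunoproteasome cutting subunit in percent of its constitutive partner (vertical axis, from CPM per kb of transcript) in each library, with the mean of each guide as a bar and the SD of 3 libraries as whiskers. The ratios run from 1.28% to 2.24% for Psmb8, 3.08% to 4.18% for Psmb9 and 5.84% to 7.59% for Psmb10, and the guides overlap for each.

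Promoter sequence was read from RefSeq windows of 250 bases before to 50 after a gene start (build GRCm38.p6), which 40 of the 48 genes had. The antioxidant response element core, the letters bound by Nfe2l1 and Nfe2l2 with a small Maf protein, was searched as TGACNNNGC or TGAGNNNGC on both strands. It occurred in 17 of the 40 genes (42.5%), against 30.8% of 27025 genes with such windows. By group it occurred in 7 of 11 core particle genes, 5 of 14 cap genes and 0 of 5 immunoproteasome genes. The interferon-stimulated response element core, searched on both strands as GAAA, any 2 bases and GAAA,, occurred in 5 of the 40 genes (12.5%) against 3.99% of all genes, and of the immunoproteasome genes only in Psme1. The CCAAT box, letters bound by the factor NF-Y and searched on both strands, occurred in 14 of the 40 genes (35.0%) against 41.1% of all genes. No match of one motif overlapped a match of another in these genes. A match describes letters and shows no binding.

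Stretches of 100 bases that hold no annotated exon (GENCODE M21) are shown for 3 core particle genes with an antioxidant response element core. Stretches of 2 immunoproteasome genes without one stand beside them. Whether the core goes with the RNA levels was not tested. They are written 5′ to 3′ on the strand of the gene, and capitals mark that core. The stretch of Psma6 lies at chr12:55384042-55384141 on the plus strand, that of Psmb5 at chr14:54618023-54618122 on the minus strand and that of Psmb6 at chr11:70525257-70525356 on the plus strand. Those of Psmb10 and Psme2 lie at chr8:105938445-105938544 and chr14:55591194-55591293, both on the minus strand.
Psma6: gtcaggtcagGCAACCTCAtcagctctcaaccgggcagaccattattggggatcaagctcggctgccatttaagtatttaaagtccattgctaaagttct
Psmb5: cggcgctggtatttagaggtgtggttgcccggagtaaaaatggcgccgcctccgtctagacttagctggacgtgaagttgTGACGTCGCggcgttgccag
Psmb6: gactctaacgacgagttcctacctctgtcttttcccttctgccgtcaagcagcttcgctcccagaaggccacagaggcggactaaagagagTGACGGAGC
Psmb10: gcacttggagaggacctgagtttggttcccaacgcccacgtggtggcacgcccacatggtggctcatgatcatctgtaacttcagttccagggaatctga
Psme2: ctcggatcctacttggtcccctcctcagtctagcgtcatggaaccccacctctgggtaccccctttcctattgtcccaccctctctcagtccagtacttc
In Psmb5 the core lies 47 to 39 bases before the start and in Psmb6 it ends at the base before the start. In Psma6 it lies 170 to 162 bases before the start on the other strand. The 40 genes had 43 windows, and another Psma6 window, not shown, holds a core 92 to 84 bases before its own start.

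The comparison between guides asked whether proteasome RNA after doxorubicin differed when the p53 response element of Pvt1 was targeted. No proteasome gene passed the threshold. In limma without a block 0 of the 48 genes were called, against 0.0% of all 14440 genes tested, and 0 had an unadjusted p under 0.05, against 0.346% of all. Libraries with equal replicate numbers deviated together, so the fit with the replicate number as a block is given beside it: there 0 of the 48 were called, against 0.0346% of all genes, and 1, Psme2, had an unadjusted p under 0.05, against 6.68% of all. Psme2 stood lower, and of all genes 3.37% were lower and 3.32% higher at that unadjusted p. The authors' deposited table likewise has 0 of the 48 genes at p under 0.05, with 0.512 as the lowest p. Of all 16425 genes only 28 were at p under 0.05 there, so a count of 0 is not particular to the module. Of the 48 genes 27 stood higher and 21 lower with the response element guide, with a median log2 fold change of 0.0062, where the median over all tested genes was -0.0004.

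The differences were small beside the spread of the replicates. For 43 of the 48 genes the difference between guide means was less than the larger SD of the 2 groups. The same held for 13154 of all 14440 tested genes, so this is not particular to the module. The median size of the log2 fold change, without its sign, was 0.022 for the proteasome genes and 0.047 for all tested genes. The limma 95% interval lay within a change of 1.2 times in either direction for 37 of the 48 genes (77.1%) and for 33.9% of all genes. Proteasome genes are also more abundant than most, with a median of 101.5 CPM against 19.1 CPM for all tested genes, so their values rest on more reads, and no comparison at equal depth was made. Among the 31 constitutive subunits the interval lay within that bound for 30, and the exception was Psma4, whose interval ran from -0.28 to 0.25 on the log2 scale. With the block all 31 lay within it.

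In the constitutive beta ring 6 of 7 genes stood higher and 1 lower, with log2 fold changes from -0.030 to 0.060. Psmb7, the trypsin-like cutting subunit, had the highest of them, at 117, 138 and 125 CPM with the control guide and 125, 138 and 133 CPM with the response element guide. Its groups overlapped (log2 fold change 0.060, SE 0.077, limma adjusted p = 0.762 with the block). Psmb5, the chymotrypsin-like subunit that proteasome inhibitors bind, stood at 82.8, 91.9 and 89.7 CPM and at 79.2, 90.1 and 89.8 CPM. Both replicate 1 libraries were its lowest (log2 fold change -0.030, limma adjusted p = 0.903 with the block). Psmb6, the caspase-like subunit, stood at 108, 131 and 125 CPM and at 112, 135 and 121 CPM, with the same low first replicate in both groups (log2 fold change 0.013).

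In the alpha ring without Psma8, 3 genes stood higher and 4 lower, from -0.014 to 0.039 on the log2 scale. Of the ATPases 3 stood higher and 3 lower, from -0.053 for Psmc6 to 0.056 for Psmc4. Of the 11 non-ATPase subunits 6 stood higher and 5 lower, from -0.040 for Psmd6 to 0.053 for Psmd3. Psmd14, the enzyme that cuts ubiquitin off the substrate, stood at 88.3, 94.3 and 85.7 CPM with the control guide and at 88.0, 88.7 and 87.4 CPM with the response element guide. The groups of Psmd14 overlapped (log2 fold change -0.022, 95% interval from -0.16 to 0.11). Psma8 had the lowest log2 fold change of the module, -0.16, at 1.63, 1.42 and 1.70 CPM and at 1.47, 1.15 and 1.499 CPM, which is near the filter.

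Psme3 was the only gene of the 48 whose groups did not overlap. It stood at 121.5, 114 and 118 CPM with the control guide and at 126, 122 and 122 CPM with the response element guide. The log2 fold change was 0.067 (SE 0.053, limma adjusted p = 0.742 with the block). Of all tested genes 2.15% did not overlap in this direction and 1.47% in the other, where 0 of the 48 were found. Psme4 stood at 139, 164 and 158 CPM and at 138, 164 and 157.5 CPM, and Psmf1 at 46.2, 50.7 and 45.7 CPM and at 47.0, 49.0 and 47.6 CPM, both with overlapping groups.

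Of the immunoproteasome genes 3 stood higher and 2 lower. Psme2 stood at 57.4, 77.9 and 76.0 CPM with the control guide and at 57.3, 67.9 and 71.7 CPM with the response element guide. It was lower in 3 of 3 pairs (log2 fold change -0.094, limma adjusted p = 0.738 with the block). Psmb9 stood at 7.17, 7.39 and 8.83 CPM and at 6.498, 7.06 and 8.18 CPM, also lower in 3 of 3 pairs (log2 fold change -0.099, limma adjusted p = 0.832 with the block). Psmb10 stood at 8.38, 9.09 and 10.7 CPM and at 10.3, 9.65 and 11.1 CPM, higher in 3 of 3 pairs (log2 fold change 0.14, limma adjusted p = 0.756 with the block). Psmb8 stood at 2.54, 2.41 and 2.08 CPM and at 3.219, 2.15 and 2.19 CPM, higher in 2 of 3 pairs. Psme1 stood at 28.9, 29.7 and 27.3 CPM and at 29.4, 30.2 and 26.4 CPM (log2 fold change 0.00059). The groups of all 5 overlapped. The 95% interval without a block lay within a change of 1.2 times only for Psme1, and with the block it did so for 3 of the 5, Psme1, Psme2 and Psmb9. For Psmb8 and Psmb10 it reached past that bound in both fits. Over the whole module 7 of 48 genes were higher and 8 lower in 3 of 3 pairs, where 14.4% of all tested genes were higher and 14.4% lower in this way.

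Of the 7 assembly chaperones 4 stood higher and 3 lower. Psmg4 stood at 2.37, 2.32 and 2.74 CPM with the control guide and at 2.64, 2.72 and 2.76 CPM with the response element guide (log2 fold change 0.11, 95% interval from -0.16 to 0.38). Psmg1, another chaperone of the alpha ring, stood at 7.27, 7.35 and 7.85 CPM and at 6.91, 8.02 and 8.74 CPM (log2 fold change 0.065). Psmg3, the partner of Psmg4 in the chaperone, stood at 6.80, 7.74 and 7.38 CPM and at 6.75, 7.15 and 6.81 CPM (log2 fold change -0.076). The groups of each of these overlapped. The other chaperones, Psmg2, Psmd5, Psmd9 and Psmd10, had log2 fold changes from -0.061 to 0.0026.

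**Figure D3:**
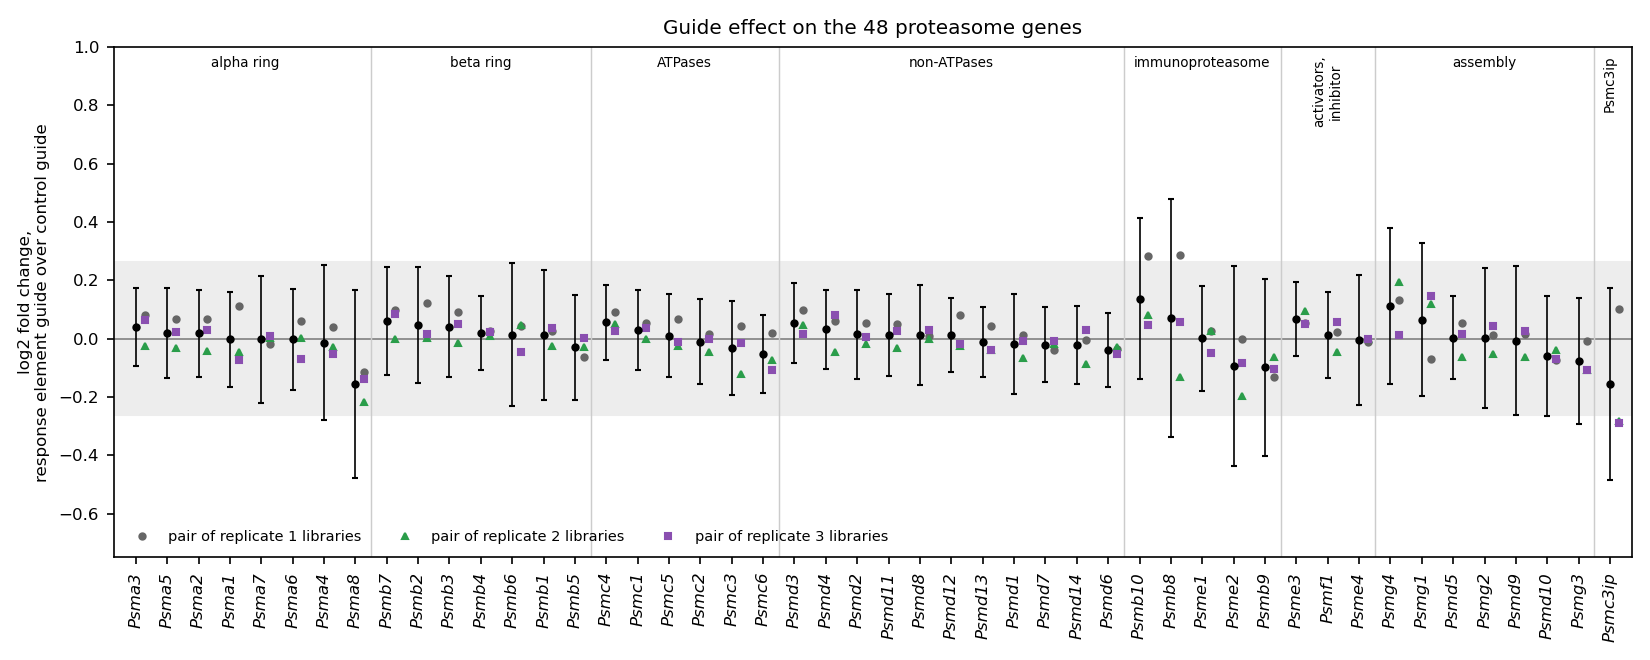
Log2 fold change of each gene, response element guide over control guide (vertical axis), with the limma 95% interval (black points and whiskers) and the difference within each pair of libraries of equal replicate number (coloured points). The grey band marks a change of 1.2 times in either direction, and 37 of the 48 intervals lie inside it.

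Within pairs of libraries the members leaned 1 way or the other. The differences within pairs had a median of 0.043 in the first, -0.029 in the second and 0.010 in the third pair on the log2 scale. Of the 48 genes 36, 12 and 27 were higher with the response element guide. Over all 14440 tested genes the medians were 0.0005, 0.0015 and -0.0009, with 7240, 7286 and 7157 genes higher. The summed level of the 31 constitutive subunits was 4239, 4662 and 4419 CPM with the control guide and 4367, 4584 and 4440 CPM with the response element guide. It was thus highest in the replicate 2 library and lowest in the replicate 1 library of both guides. What a replicate number stands for is not given in the labels.

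Both guides were then combined and the replicate numbers compared with a limma F test. It called 16 of the 48 genes (33.3%), against 48.6% of all tested genes, so differences between replicate numbers were not more frequent in the module than in the table. The calls fell unevenly over the subunits: 6 of 7 constitutive beta genes, 3 alpha genes (Psma4, Psma6 and Psma7), 2 non-ATPases (Psmd1 and Psmd8) and 0 of 6 ATPases. The others were the immunoproteasome genes Psme2 and Psmb9, the chaperones Psmd9 and Psmd10, and Psme4. Without the replicate 1 libraries the same test called 1 of the 48 genes, Psmb2, against 21.2% of all. No test of the difference between subunit groups was made.

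The constitutive beta genes were highest in replicate 2. Both replicate 2 libraries stood above the other 4 libraries for 7 of 7 of them, for 5 of 7 alpha genes without Psma8, for 18 of the 31 constitutive subunits and for 23 of all 48 genes (47.9%). The share over all tested genes was 15.1%. Psmb6 had the largest difference of the beta ring, 0.28 on the log2 scale between replicate 2 and replicate 1 (limma adjusted p = 7.08e-04). Psmb1, a non-cutting beta subunit, stood at 122.9, 148 and 135 CPM and at 125, 146 and 138 CPM, in the same order with both guides (0.24, limma adjusted p = 0.00118). Psma7 stood at 94.5, 111 and 103 CPM and at 93.4, 111 and 103 CPM (0.24, limma adjusted p = 0.0013). Psmb4 differed least, at 154, 158 and 150 CPM and at 157, 159 and 153 CPM, and was the beta gene not called. Both replicate 2 libraries were above the other 4 for 17, 16 and 15 of the 31 constitutive subunits with quantile normalization, median centring and TMM-scaled reads, alternatives chosen after seeing the data. For the constitutive beta ring the same alternatives gave 7, 6 and 6 of 7 genes.

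The differences between replicate numbers were smaller in the cap. Of the 6 ATPases, replicate 2 was above the other libraries in both guides only for Psmc5, and the median difference between replicate 2 and replicate 1 was 0.063 on the log2 scale, beside 0.18 for the constitutive beta ring and 0.13 for the alpha ring without Psma8. Of the 11 non-ATPases, replicate 2 was above the other libraries in both guides for 5, with a median difference of 0.054. In the whole cap this held for 6 of 17 genes (35.3%), against 15.1% of all tested genes. Psmc1 stood at 181, 185 and 174 CPM and at 188, 185 and 178 CPM, with the lowest value in replicate 3. The scaffold subunits Psmd1 and Psmd2 stood at 195, 223 and 209 CPM and at 430.5, 471 and 458 CPM with the control guide. With the response element guide they stood at 197, 213 and 208 CPM and at 447, 465 and 460 CPM, lowest again in replicate 1.

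Other members had other orders. Psme2 was low in both replicate 1 libraries (57.4 and 57.3 CPM) against 67.9 to 77.9 CPM in the other 4, a difference of 0.34 between replicate 2 and replicate 1 (limma adjusted p = 1.87e-04). Psma4, an alpha subunit, was likewise low in replicate 1, at 96.7, 117 and 122 CPM and at 99.4, 115 and 117 CPM (0.24, limma adjusted p = 3.44e-04). Psmb9 was highest in replicate 3, with a difference of 0.30 between replicate 3 and replicate 1 (limma adjusted p = 0.0393). Psmd9, a chaperone of the ATPase base, ran the opposite way, at 29.7, 28.01 and 24.3 CPM and at 30.0, 26.8 and 24.7 CPM (limma adjusted p = 0.00535). Both replicate 1 libraries stood above the other 4 for 4 of the 48 genes, Psmb8, Psmd7, Psmg2 and Psmd9, against 25.7% of all tested genes, and below them for 18 of the 48, against 25.3%. Macrophage markers moved the opposite way to the beta genes: 14 of the 15 tested were higher in both replicate 1 libraries than in the other 4. Of the 12 fibroblast markers 8 differed between replicate numbers in the limma F test, among them Thy1, at a mean of 206 CPM in replicate 1 against 410 and 390 CPM in replicates 2 and 3, and Lum, at 21.7 against 7.55 and 4.78 CPM. The muscle marker Des was highest in both replicate 2 libraries, at 47.8 and 43.6 CPM against 28.3 to 35.9 CPM in the other 4. Ckm, the other muscle marker tested, had a mean of only 0.389 CPM and did not separate in this way. The endothelial marker Kdr and the epithelial marker Krt19 were lowest in replicate 2. Kdr had a mean of 52.2 CPM there against 67.3 and 65.9 CPM in replicates 1 and 3, and Krt19 61.3 against 92.4 and 88.5 CPM. Krt19 was not called in the limma F test between replicate numbers. Krt18, the other epithelial marker tested, was lowest in replicate 1, at a mean of 1.39 CPM against 2.34 and 4.11 CPM. Tek, the other endothelial marker tested, was highest in replicate 1, at 3.07 CPM against 1.37 and 1.31 CPM. The part of these cell type markers in the replicate differences was not tested.

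**Figure D4:**
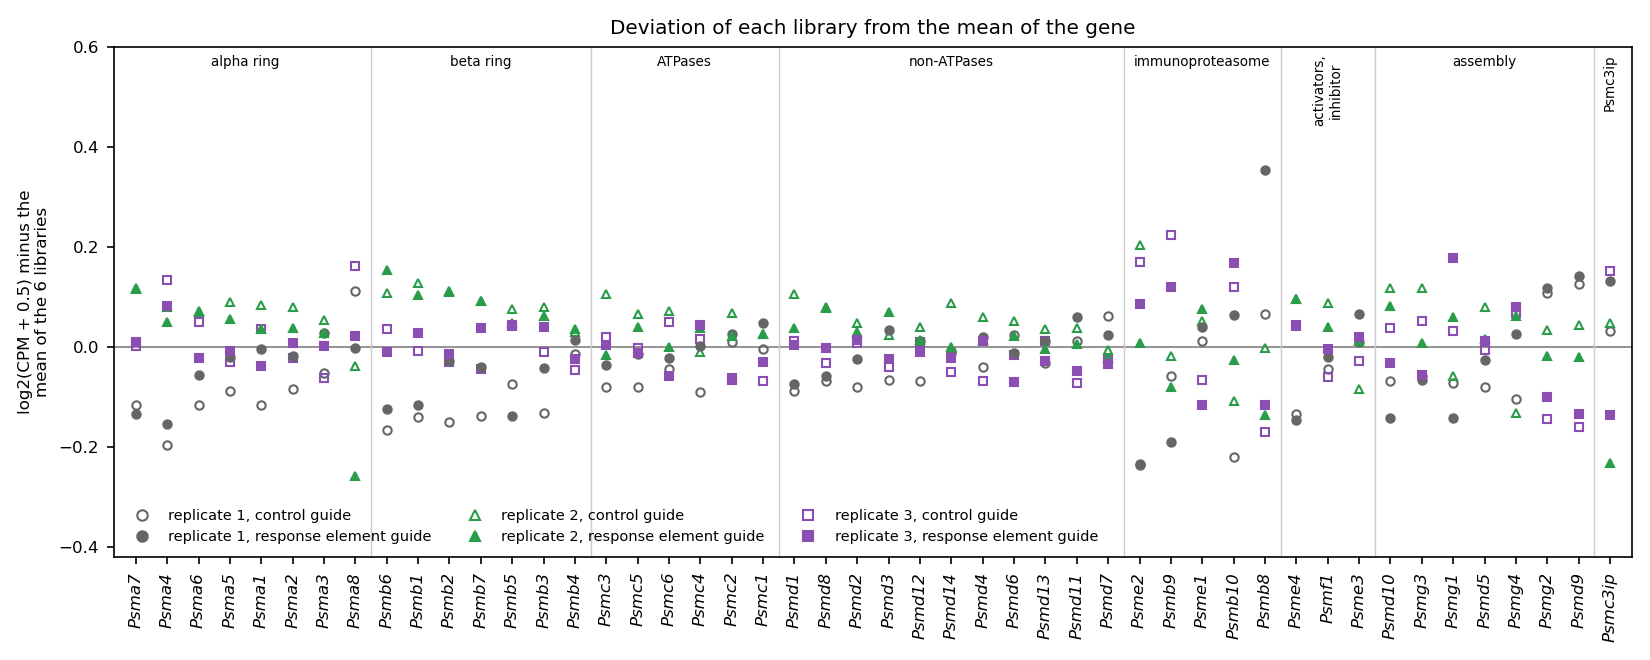
Deviation of each library from the mean of the 6 libraries of the gene (vertical axis, log2(CPM + 0.5)), with replicate number by colour and shape and the guide by fill (open for the control guide). In the constitutive beta ring both replicate 2 libraries lie above the other 4 for 7 of 7 genes (6 with median centring or TMM-scaled reads), while Psme2 is low in both replicate 1 libraries and Psmd9 high in them.

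The coefficient of variation over the 6 libraries had a median of 4.91% for the proteasome genes and 10.1% for all tested genes. The proteasome genes also had the higher median level, 101.5 against 19.1 CPM, and genes of equal level were not compared. It was lowest for Psmd13, a lid subunit, at 1.81%, and highest for Psmb8 at 17.4%. The median was 3.58% for the ATPases, 3.18% for the non-ATPases and 6.25% for the constitutive beta ring.

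Genes that work with the proteasome but lie outside the symbol rule were read in the same fits, and none was called for the guide with or without the block. Of proteasome partners, 10 genes were tested, with 5 higher and 5 lower and a median log2 fold change of -0.0038. Txnl1, a thioredoxin bound to the cap, stood at 133, 125 and 120 CPM with the control guide and at 122, 120 and 112 CPM with the response element guide (log2 fold change -0.094, limma adjusted p = 0.678 with the block). Sem1, listed under its older symbol Shfm1, is the smallest cap subunit and stood at 82.5, 73.9 and 71.2 CPM and at 72.0, 71.5 and 67.9 CPM. Both were lower in 3 of 3 pairs with overlapping groups. Pomp, the chaperone that matures the barrel, stood at 117, 114 and 114 CPM and at 114, 110 and 109 CPM, again overlapping.

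Of the 11 genes of the transcription factor route, 4 stood higher and 7 lower. Nfe2l1 stood at 609.5, 527 and 532 CPM with the control guide and at 568, 476 and 510 CPM with the response element guide, lower in 3 of 3 pairs with overlapping groups (log2 fold change -0.10, limma adjusted p = 0.651 with the block). By replicate number its order was the reverse of that of most beta genes, highest in both replicate 1 libraries and lowest in both replicate 2 libraries of their guide. Of 17 ubiquitin and delivery genes 8 stood higher and 9 lower, with a median of -0.0038. Of 14 antigen presentation genes 8 stood higher and 6 lower, with a median of 0.0057.

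Psmb9 and Tap1, a subunit of the peptide transporter, start 226 bases apart on opposite strands of chromosome 17, and their promoter windows share 275 bases. Tap1 stood at 94.4, 88.3 and 88.0 CPM with the control guide and at 94.0, 92.3 and 86.0 CPM with the response element guide, highest in replicate 1, where Psmb9 was lowest. The class I genes B2m, H2-K1 and H2-D1 were higher in both replicate 1 libraries than in the other 4, in B2m at 961 and 1017 CPM against 686 to 747 CPM. Nlrc5, a transactivator of class I genes, had the highest log2 fold change of that list, 0.13 (limma adjusted p = 0.713 with the block).

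Reads of some members cannot be told apart with certainty from those of neighbours, since the strand setting of the counting is not given in the sources used here. In GENCODE M21, 14 of the 48 genes share exon bases with another gene, 12 of them with a gene on the opposite strand. Psmb9 shares 212 bases with Tap1, Psmb8 498 with the antisense gene Gm20496 and Psmd9 1849 with the long noncoding gene Gm26745. The levels of these members are uncertain to that extent.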

How the data were processed

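PolyA RNA was sequenced from strand-specific TruSeq libraries, per the labels' protocols. The build was mm10, per the submitters' processing notes, and the tools named there without roles were edgeR 3.22.3, HTSeq 0.6.1, StringTie 1.2.4 and TopHat2 2.0.14. The deposited values used are CPM per gene and library. The deposited table also gives log2 values (a fold change and an average level) for the guide comparison, and the authors' false discovery rate and p-value for it. Its 6 further per-sample columns were not used. Dividing CPM by the worth of 1 read gave whole reads within 0.01 reads for 100% of values. Reads assigned to no gene (8.78% to 10.2% of a library) were removed and CPM were not rescaled.

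The test was limma 3.58.1 (a trended, robust variance prior, two-sided) on log2(CPM + 0.5) of 14440 genes, with a Benjamini-Hochberg adjusted p under 0.05 as the threshold. Fold changes on this scale understate the change of low genes. A fit with replicate number as a block was the alternative. Deviations from group means correlated at 0.869, 0.739 and 0.817 across genes for libraries of equal number and at most at 0.203 otherwise, so the numbers pair the libraries. Differences between replicate numbers were tested with limma's F test in the fit with guide and replicate number. The script was tested on simulated data. edgeR 4.0.16 and DESeq2 1.42.0 on the recovered reads, other scalings, filters, pseudocounts and libraries left out were alternatives. Lengths are medians of RefSeq-linked GENCODE M21 transcripts. Named genes are Pvt1, Myc, the immunoproteasome, cutting, activator, inhibitor and assembly genes, up to 4 members per subunit group and genes per pathway list with the smallest p in the blocked fit, and the highest and lowest level per length in a group. Members with a share in the replicate pattern were named after their values were seen. So were Psmd14, Psmd13, Psmc5, Psmd2, Psmb1, Tap1, B2m, S100a4, Thy1, Lum, Des, Ckm, Kdr and Krt19. The members and lists were chosen with earlier results of these data known.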

Additional observations from a re-analysis of the deposited data

How the results depend on the processing

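Under the 25 alternatives run, 0 proteasome genes were called for the guide in each, and the median log2 fold change of the module lay between -0.020 and 0.040, within 1 SD (0.036) of the 3 pair medians around its main value. Sign changes without a call occurred in 87 of 1292 values of the 54 named genes other than Pvt1 and Myc. The number of all genes called for the guide, 0 without a block (50 unadjusted), was 1 with DESeq2. With the replicate block it was 5, 5 with edgeR, 6 with DESeq2, 5 with quantile normalization and 4 with median centring, and with the block and 1 replicate number left out it was 8, 160 and 9 (without replicate 1, 2 and 3). The block changed no call of a proteasome gene. The 16 proteasome genes called for replicate number became 7 with limma without trend. They became between 1 and 16 when a replicate number was left out, with 1 left without replicate 1. The share of all tested genes called, 48.6% in the main fit, was 31.7% without trend. It was 21.2%, 48.7% and 34.9% without replicate 1, 2 and 3. The causes of these changes were not tested. Depth limits Psma8, Psmc3ip, Psmb8 and Psmg4 most, at 64 to 213 reads per library.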
